A study of Mus musculus with 12 samples.

Results

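The EGR and NR4A immediate early genes and their IER companions were followed as 8 genes, Egr1, Egr2, Egr3, Nr4a1, Nr4a2, Nr4a3, Ier2 and Ier3, in open chromatin of brain macrophages. Every peak that the deposited annotation assigned to one of these gene names was taken. That gave 64 of the 60288 merged peaks of the untreated mice and 58 of the 54953 merged peaks of the LPS-treated mice. The assignment names the gene with the nearest annotated start site, so a peak carries a gene's name by position and not by any test of regulation.

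The libraries were made by ATAC-seq, in which a transposase cuts and tags accessible DNA, from bone marrow (BM) chimeras. Wild type C57BL/6J mice received 950 cGy of total body irradiation and donor BM, and the labels give an interval of 3.5 or 9 months afterwards without saying which mouse had which. CD45.1 marked engrafted, graft-derived macrophages and CD45.2 marked host microglia, so the host cells had been in the irradiated brain and the grafted cells came from donor BM. Both were sorted from each brain through one gate (CD11b+, CD45 low, Ly6C/G-), giving 4 groups of 3 libraries: CD45.1 and CD45.2 from untreated mice 4, 5 and 6, and CD45.1 and CD45.2 from mice 1, 2 and 3, which received LPS (2.5 mg/kg) and were killed after 12 h. All 12 libraries shared a 20 min enzymatic digestion at 37 °C, and each came from 30000 to 50000 sorted cells. The labels give no age or sex.

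Immediate early genes are transcribed within minutes of a stimulus without new protein synthesis, because their promoters are already open and carry binding sites for factors that are present beforehand, mainly SRF at CArG boxes and CREB at cyclic AMP response elements (CREs). The EGR proteins are zinc finger transcription factors held back by the corepressors NAB1 and NAB2. The NR4A proteins are orphan nuclear receptors that bind the NBRE element alone or pair with RXR, and in macrophages both families restrain or shape inflammatory transcription. IER2 is a nuclear protein induced by growth factors, and IER3 is a stress-induced protein that affects survival and NF-kappaB signalling.

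Sequences are shown here for 5 of the peaks that passed the test between populations and for 3 promoters in which the letters of a searched motif stood out. Each is the 200 bp window around the centre of the untreated peak, or its part outside annotated UTRs, read from the plus strand of mm9. Capitals mark matches to the searched motifs. These were the CRE (TGACGTCA) and its core (TGACG), the CArG box, the EGR site (GCGTGGGCG or GCGGGGGCG) and the NBRE (AAAGGTCA). Also searched were AP-1 (TGANTCA), the ETS/PU.1 site (GAGGAAGT), NF-kappaB and a pattern labelled CEBP (TTGCNNCAA), all on both strands. Each full CRE also holds the core on each strand.
Egr2, 98383 bp upstream of the start site (chr10:66902135-66902334), the clearest difference between populations, with 1 CRE core: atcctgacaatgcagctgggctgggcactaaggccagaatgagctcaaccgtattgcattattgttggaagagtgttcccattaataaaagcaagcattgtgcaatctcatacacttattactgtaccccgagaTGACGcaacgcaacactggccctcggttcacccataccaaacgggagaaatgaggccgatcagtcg
Egr2, 47816 bp upstream (chr10:66952702-66952901), with 1 ETS/PU.1 match: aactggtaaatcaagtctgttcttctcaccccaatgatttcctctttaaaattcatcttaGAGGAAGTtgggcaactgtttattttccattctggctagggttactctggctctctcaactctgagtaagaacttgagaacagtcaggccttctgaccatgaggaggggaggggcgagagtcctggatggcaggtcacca
Nr4a1, 7581 bp upstream (chr15:101089597-101089796), with no match: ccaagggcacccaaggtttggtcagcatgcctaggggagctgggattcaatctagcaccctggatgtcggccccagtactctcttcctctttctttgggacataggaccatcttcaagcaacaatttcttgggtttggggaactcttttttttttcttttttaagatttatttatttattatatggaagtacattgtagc
Nr4a2, 1807 bp upstream (chr2:56969157-56969356), with 2 CRE cores: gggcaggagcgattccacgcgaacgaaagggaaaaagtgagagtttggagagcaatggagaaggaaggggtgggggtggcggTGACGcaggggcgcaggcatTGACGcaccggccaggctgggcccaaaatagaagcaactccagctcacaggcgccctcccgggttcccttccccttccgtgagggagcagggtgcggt
Egr3, 48883 bp upstream (chr14:70428270-70428469), with 1 CRE core: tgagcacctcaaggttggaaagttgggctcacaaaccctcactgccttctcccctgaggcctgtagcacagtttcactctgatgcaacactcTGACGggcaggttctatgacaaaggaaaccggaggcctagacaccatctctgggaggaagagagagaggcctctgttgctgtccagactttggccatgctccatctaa
Ier3 promoter, 91 bp upstream (chr17:35958468-35958628), with 1 NF-kappaB match: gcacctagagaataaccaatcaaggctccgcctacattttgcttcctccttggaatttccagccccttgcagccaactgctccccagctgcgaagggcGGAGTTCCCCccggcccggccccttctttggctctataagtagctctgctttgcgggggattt
Ier2 promoter, 24 bp upstream (chr8:87186752-87186875), with the full CRE: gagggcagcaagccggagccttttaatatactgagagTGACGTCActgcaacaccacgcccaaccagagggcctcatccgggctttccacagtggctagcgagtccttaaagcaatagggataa
Nr4a3 promoter, 211 bp upstream (chr4:48057867-48058024), with 3 CRE cores: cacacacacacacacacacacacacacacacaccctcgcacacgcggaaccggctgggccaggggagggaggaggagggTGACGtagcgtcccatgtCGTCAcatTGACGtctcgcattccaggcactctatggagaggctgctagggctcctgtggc

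The untreated libraries held 8392877.5 to 9107770 tags (aligned reads in steps of 0.5, as the file headers give them) and the LPS libraries 2966364 to 6556594.5. Values below are normalized tags per peak, the deposited tags divided by the library's DESeq2 size factor within its own table. The CD45.2 library of mouse 4 stood apart, with 9.30% of its tags in its own called peaks against 17.6% to 27.2% in the other untreated libraries. All 8 brain macrophage markers had peaks in both tables. Neuron markers as a sum were more open in CD45.2: the 5 genes together held 65.6 to 73.4 normalized tags in untreated CD45.1 and 210.4 to 238.2 in untreated CD45.2, and 18.5 to 24.2 against 66.4 to 98.6 after LPS. Of these 5 genes, Rbfox3, Snap25 and Syt1 passed in untreated mice and Snap25 and Syt1 after LPS, all higher in CD45.2, and Syt1, a defining neuron gene, was at 0 in 2 of 3 untreated and 3 of 3 LPS-treated CD45.1 libraries. Neurod2 and Tubb3 passed in neither table. In untreated mice their means were 9.74 and 25.3 in CD45.1 and 11.2 and 24.2 in CD45.2. The 4 endothelial genes tested summed to 333 to 451 in untreated CD45.1 and 724 to 759 in CD45.2, and to 228 to 262 and 267 to 311 after LPS. The part of these differences in the results below was not tested. In these sorted pools, fewer cells with an open site and less opening per cell cannot be told apart.

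The 8 genes had between 5 peaks (Egr1) and 11 peaks (Egr3, Ier2) in the untreated table and between 4 (Ier3) and 11 (Ier2) in the LPS table. Of the 64 untreated peaks, 37 were annotated as intergenic, 13 as intronic and 10 as promoter, at 24 to 206659 bp from a start site. Of the 58 LPS peaks, 30 were intergenic, 15 intronic and 9 promoter. Among the untreated peaks, 27 overlapped a called peak in all 6 libraries' own lists and 8 in 1 list. Among the LPS peaks, 20 did so in all 6 lists and 21 in 1 list. Of all merged peaks, 19.6% for untreated mice and 25.9% for LPS-treated mice came from 1 list. Coming from 1 list may not be the same count as overlapping 1 list, and the share of all peaks in all 6 lists is not given. The rise in peaks of 1 list is therefore not read as particular to these genes. Each of the 8 genes had a peak within 1000 bp of a start site in both tables.

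The first comparison asked whether chromatin at these genes differed between engrafted cells and host microglia of untreated mice. It did at 7 of 64 peaks, all of them more than 1000 bp from a start site: 5 peaks, at Egr1, Egr2 (2 peaks), Nr4a1 and Nr4a2, were more open in CD45.1, and 2 peaks, named for Egr3 and Ier2, were more open in CD45.2. Only 11 of the 64 lay within 1000 bp, so no contrast of promoters with other peaks is read from this. Adjusted p-values here and below are from DESeq2's Wald test on rounded tags, with Benjamini-Hochberg adjustment over all peaks tested and a threshold of 0.05. The 5 peaks are 7.81% of the members, where 8.54% of all 59170 tested peaks were called higher in CD45.1, and the 2 are 3.13%, where 6.32% of all were called higher in CD45.2. These shares lie at or below those of all peaks, with no test of that difference. The median log2 difference was 0.08 over the members and 0.00 over all peaks, 53 of the 64 differed by less than 2-fold, and the 3 CD45.1 and 3 CD45.2 values did not overlap in 24 (37.5%; 35.5% of all peaks).

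**Figure D1:**
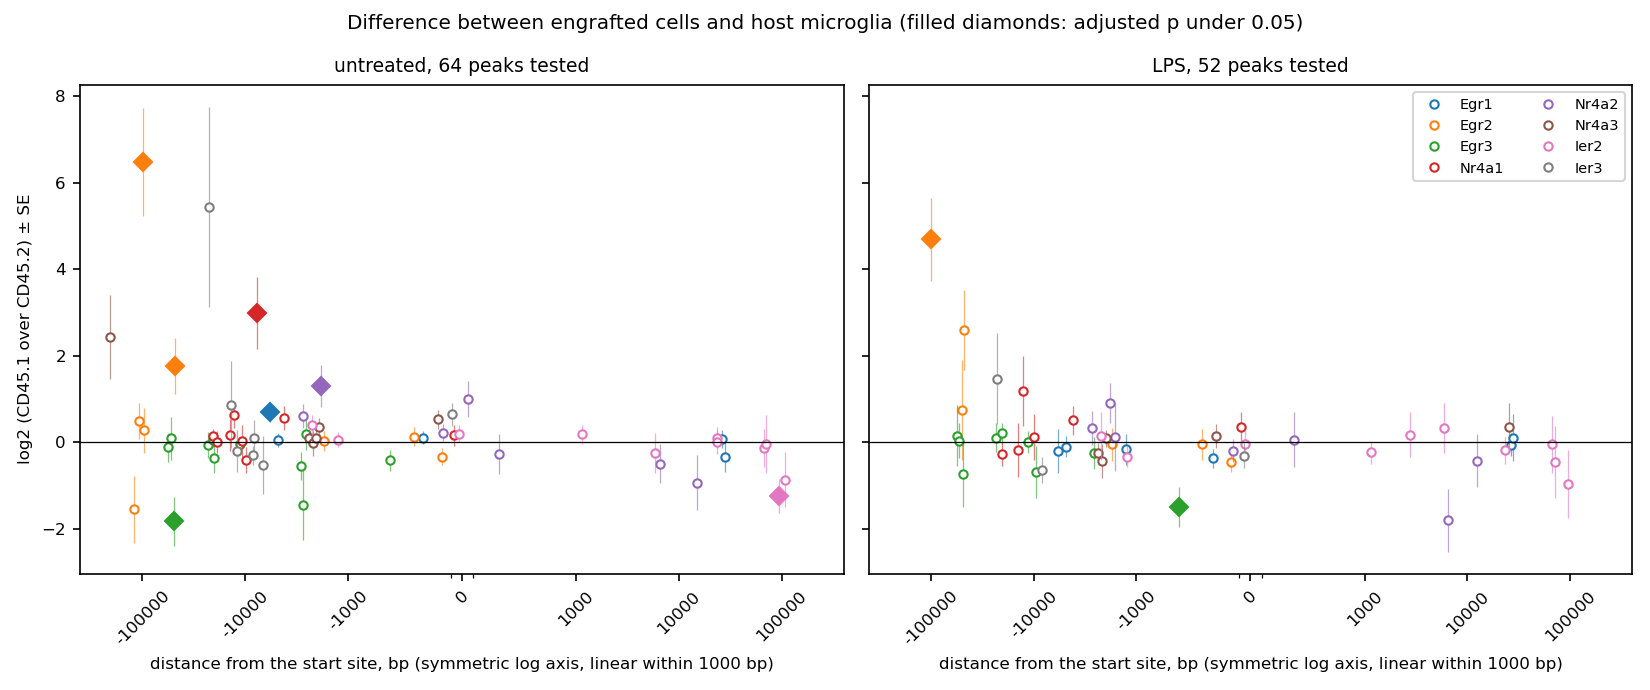
Log2 difference between CD45.1 and CD45.2 (vertical axis, with SE) of each tested peak of the 8 genes against its distance from the start site in bp (symmetric log axis), for untreated mice (left, 64 peaks) and LPS-treated mice (right, 52 peaks). Filled diamonds passed the test, and most open circles lie near 0. The Egr2 peak near 98 kb upstream stands highest in both panels, and the only filled point within 1000 bp of a start site is the Egr3 promoter after LPS.

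Egr2, which encodes a zinc finger factor used by macrophages and by myelinating glia, had the clearest difference. Its peak 98383 bp upstream (chr10:66902161-66902308, mm9, intergenic, with Egr2 and then Ado as the nearest coding genes) held 27.1, 26.5 and 44.7 normalized tags in the CD45.1 libraries of mice 4, 5 and 6. The CD45.2 libraries of the same mice held 1.64, 0.387 and 0.406. The populations were far apart in every mouse, and no CD45.2 library had more than 1 tag, so CD45.1 was at least 10.1-fold higher when 3 tags per library are taken as the floor (log2 difference 6.49 ± 1.25 (SE), adjusted p = 7.64e-06, a fitted value that depends on the near-empty group). It was called in all 3 CD45.1 lists and in none of the CD45.2 lists. Lists here and below were called from the same tags, so they add no separate support. The peak passed the count filter through CD45.1 alone. The call stood with the mouse as a replicate block (adjusted p = 2.62e-05) and without any single library (0.00118 or lower).

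A second Egr2 peak, 47816 bp upstream (chr10:66952752-66952850, intergenic), went the same way at a lower level. It held 14.9, 16 and 12 normalized tags in CD45.1 and 5.74, 4.26 and 2.43 in CD45.2, with no overlap (log2 difference 1.76 ± 0.65 (SE), adjusted p = 0.0485). It too was in all 3 CD45.1 lists and in no CD45.2 list, and it too passed the count filter through CD45.1 alone. This call was lost with the mouse block (adjusted p = 0.173), and without the CD45.1 library of mouse 4 (0.193), the CD45.1 library of mouse 5 (0.204), the CD45.1 library of mouse 6 (0.072), the CD45.2 library of mouse 5 (0.205) or the CD45.2 library of mouse 6 (0.324). The other 6 Egr2 peaks were not called, and the one nearest the start site leaned to CD45.2, as described with the promoters.

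Egr1, the most broadly induced EGR gene, had 1 called peak among 5, at 5751 bp upstream (chr18:35015017-35015203, intergenic). CD45.1 libraries held 92.3, 117 and 96.9 normalized tags and CD45.2 libraries 57.4, 63.5 and 67.4. The groups did not overlap, and the difference was under 2-fold (log2 difference 0.69 ± 0.22 (SE), adjusted p = 0.0136). It was lost with the block (adjusted p = 0.0818), and without the CD45.1 library of mouse 5 (0.151), the CD45.2 library of mouse 5 (0.102) or the CD45.2 library of mouse 6 (0.0668). Its neighbour at 4816 bp upstream, the highest Egr1 peak, held 169, 216 and 219 in CD45.1 and 185, 206 and 190.3 in CD45.2 (log2 difference 0.05 ± 0.15 (SE), adjusted p = 0.918). These values overlapped, so peaks less than 1 kb apart differed in whether they passed.

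At Egr3, which encodes another factor of the family, the called peak was more open in host microglia. It lies 48883 bp upstream (chr14:70428313-70428425) in an intron of the neighbouring gene Pebp4. It held 1.87, 11 and 5.45 normalized tags in CD45.1 and 24.6, 17.4 and 23.9 in CD45.2 (log2 difference -1.83 ± 0.57 (SE), adjusted p = 0.0126). The lowest CD45.2 library was above the highest CD45.1 library, and the CD45.1 values varied most. The adjusted p was 0.0529 with the block, and the call was lost without the CD45.1 library of mouse 4 (0.158), the CD45.2 library of mouse 5 (0.0525) or the CD45.2 library of mouse 6 (0.135). The highest Egr3 peak, 20315 bp upstream and also in a Pebp4 intron, held 146, 179 and 159.5 in CD45.1 and 141, 169 and 156 in CD45.2, with log2 difference 0.04 ± 0.16 (SE), adjusted p = 0.933.

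Nr4a1 encodes the orphan receptor also called Nur77. Its called peak, 7581 bp upstream (chr15:101089647-101089745, intergenic), held 13.5, 13.7 and 16.9 normalized tags in CD45.1 and 0, 0.774 and 4.06 in CD45.2. CD45.1 was higher in every mouse at low levels on both sides (log2 difference 2.99 ± 0.83 (SE), adjusted p = 0.00405), and the peak came from the list of 1 CD45.1 library alone. It passed the count filter through CD45.1 alone, so the order of the groups adds no separate support. The call stood with the block (adjusted p = 0.0153) and was lost without the CD45.2 library of mouse 5 (0.0805). The other 8 Nr4a1 peaks had log2 differences of -0.40 to 0.63, none called. The highest, 20382 bp upstream (chr15:101076795-101076995, intergenic, with Grasp and then Nr4a1 as the nearest coding genes), held 249, 236 and 286 in CD45.1 and 277, 211 and 215 in CD45.2 (log2 difference 0.15 ± 0.15 (SE), adjusted p = 0.642).

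Nr4a2 encodes the receptor Nurr1 and has 2 annotated start sites, from which the distances of its peaks are counted. The called peak, 1807 bp upstream of the inner start (chr2:56969203-56969309, in an Nr4a2 intron), held 24.7, 15.1 and 39.8 normalized tags in CD45.1 and 13.9, 8.51 and 10.5 in CD45.2. The lowest CD45.1 library was only just above the highest CD45.2 library (log2 difference 1.31 ± 0.49 (SE), adjusted p = 0.0496). It was in all 3 CD45.1 lists and in no CD45.2 list. The adjusted p was 0.202 with the block, and the call was lost without the CD45.1 library of mouse 4 (0.154), the CD45.1 library of mouse 6 (0.426), the CD45.2 library of mouse 5 (0.307) or the CD45.2 library of mouse 6 (0.204). None of the 6 Nr4a3 peaks was called, and their log2 differences ran from -0.02 to 2.43. The highest Nr4a3 peak, 2386 bp upstream of the start of this receptor gene, held 116, 122 and 125 in CD45.1 and 118, 109 and 111 in CD45.2 (log2 difference 0.11 ± 0.18 (SE), adjusted p = 0.825).

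Among the IER genes, 1 of 11 Ier2 peaks and 0 of 7 Ier3 peaks passed. The Ier2 peak lies 95122 bp downstream (chr8:87091544-87091714), in a coding exon of Cacna1a, a calcium channel gene best known in neurons. It held 11.2, 12.3 and 22.3 normalized tags in CD45.1 and 31.1, 43.7 and 31.6 in CD45.2 (log2 difference -1.24 ± 0.40 (SE), adjusted p = 0.0161). CD45.2 was higher in every mouse, in the same direction as the summed neuron markers given above, whose part in it was not tested. The adjusted p was 0.0929 with the block, and the call was lost without the CD45.1 library of mouse 4 (0.155), the CD45.1 library of mouse 5 (0.105), the CD45.2 library of mouse 5 (0.25) or the CD45.2 library of mouse 6 (0.0747). The highest Ier2 peak, 1237 bp upstream, held 139, 132 and 179 in CD45.1 and 147, 147 and 137 in CD45.2 (log2 difference 0.06 ± 0.17 (SE), adjusted p = 0.91). The highest Ier3 peak, 8330 bp upstream, held 58.8, 76.2 and 76.8 in CD45.1 and 89.3, 94.8 and 77.5 in CD45.2, higher in every CD45.2 library without passing (log2 difference -0.30 ± 0.22 (SE), adjusted p = 0.477).

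Under a stricter rule (adjusted p under 0.01 and over 4-fold), 2 member peaks stood in untreated mice, the Egr2 peak at 98383 bp and the Nr4a1 peak at 7581 bp. Of all peaks, 3.78% passed that rule toward CD45.1 and 2.65% toward CD45.2. The study's own wording of such a rule has a p-value with no mention of adjustment. With the unadjusted p the members that passed were these 2, where 4.47% of all peaks passed toward CD45.1 and 3.31% toward CD45.2. All 7 called member peaks also passed at 0.05 without the CD45.2 library of mouse 4 (highest adjusted p = 0.0388). With the mouse block the 5 and 2 called peaks became 2 and 0, where 5.96% and 4.08% of all peaks were called. With edgeR they became 12 and 2, where 12.2% and 10.7% of all peaks were called, so peaks in general were also called more often.

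After LPS, the comparison of the same populations called 2 of the 52 member peaks that passed the filter on low counts; 6 of the 58 did not. Egr2 was again more open in CD45.1 at its far upstream peak, and the Egr3 promoter was more open in CD45.2. That is 1.92% of the tested members in each direction, against 4.08% of all 49180 tested peaks higher in CD45.1 and 2.38% higher in CD45.2. By the stricter rule 1 member peak (Egr2) passed, where 1.78% of all peaks passed toward CD45.1 and 1.19% toward CD45.2. With the unadjusted p in that rule the Egr2 peak 47813 bp upstream passed as well (unadjusted p = 0.00533), where 3.06% and 2.2% of all peaks did. The mouse block kept 1 and 0 of the member calls (2.26% and 1.41% of all peaks), and edgeR called 2 and 2 (7.35% and 4.67% of all). The groups did not overlap in 11 of 52 members (21.2%; 27.1% of all peaks), and the median log2 difference was -0.05 over members and -0.01 over all. LPS libraries held fewer tags than untreated ones, so a difference of a given size was harder to detect here.

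The Egr2 peak, at 98430 bp upstream in this table (chr10:66902108-66902266), held 22.2, 21.5 and 24.1 normalized tags in the CD45.1 libraries of mice 1, 2 and 3 and 0.876, 1.74 and 0.594 in the CD45.2 libraries. No CD45.2 library had more than 2 tags, and CD45.1 was at least 7.03-fold higher against the floor of 3 tags (log2 difference 4.69 ± 0.96 (SE), adjusted p = 9.57e-05). With the block the adjusted p was 7.75e-04, and it was 0.0109 or lower without any single library. These are other mice than the untreated ones, and CD45.1 was higher in 6 of 6 mice at this site. In both tables the peak passed the count filter through CD45.1 alone, so this count of mice adds no separate support. The Egr2 peak at 47813 bp upstream held 9.7, 8.48 and 9.91 in CD45.1 and 1.75, 1.74 and 0.891 in CD45.2. It too entered the test through CD45.1 alone. It was again higher in each CD45.1 library, at least 2.91-fold against the floor, but did not pass (adjusted p = 0.0721, and 0.0168 with edgeR). The peak that edgeR added toward CD45.2 was at Nr4a2, 6537 bp downstream of the inner start, over an exon near the end of the gene. This Nr4a2 peak passed the count filter through CD45.2 alone. It held 5.26, 1.3 and 3.3 in CD45.1 and 16.6, 12.2 and 8.02 in CD45.2, higher in each CD45.2 library, against the direction of the called Nr4a2 peak of untreated mice (log2 difference -1.81 ± 0.73 (SE), adjusted p = 0.134; edgeR 0.0363).

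The Egr3 promoter peak (623 bp upstream, with no exon in it) held 10.5, 7.18 and 8.96 normalized tags in CD45.1 and 29.8, 26.2 and 24.9 in CD45.2. Every CD45.2 library was more than 2-fold above every CD45.1 library (log2 difference -1.51 ± 0.46 (SE), adjusted p = 0.0219), and the peak was in all 3 CD45.2 lists and no CD45.1 list. With the block the adjusted p was 0.117. Leaving out any of the 6 libraries also lost the call (adjusted p = 0.0976 to 0.154).

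Of the other called untreated peaks, those of Egr1, Egr3, Ier2 and Nr4a2 had an LPS counterpart and none passed. At the Nr4a2 intronic peak CD45.1 held 21, 21.5 and 22.2 and CD45.2 17.5, 10.9 and 8.91 normalized tags, higher in every CD45.1 library (log2 difference 0.90 ± 0.47 (SE), adjusted p = 0.334). At the Egr1 peak, now 5728 bp upstream, the values were 12.1, 10.4 and 17.9 in CD45.1 and 11.4, 23.5 and 11.9 in CD45.2, and they overlapped (log2 difference -0.20 ± 0.51 (SE), adjusted p = 0.926). At the peak in the Cacna1a exon they were 4.45, 1.96 and 3.77 in CD45.1 and 7.01, 6.54 and 8.02 in CD45.2 (log2 difference -0.97 ± 0.78 (SE), adjusted p = 0.648). At the Pebp4 intron they were 5.26, 5.22 and 4.25 in CD45.1 and 8.76, 3.92 and 11 in CD45.2 (log2 difference -0.74 ± 0.76 (SE), adjusted p = 0.753). No LPS peak overlapped the Nr4a1 peak at 7581 bp. The uncalled LPS members ran from -1.81 to 2.59 in log2 difference.

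**Figure D2:**
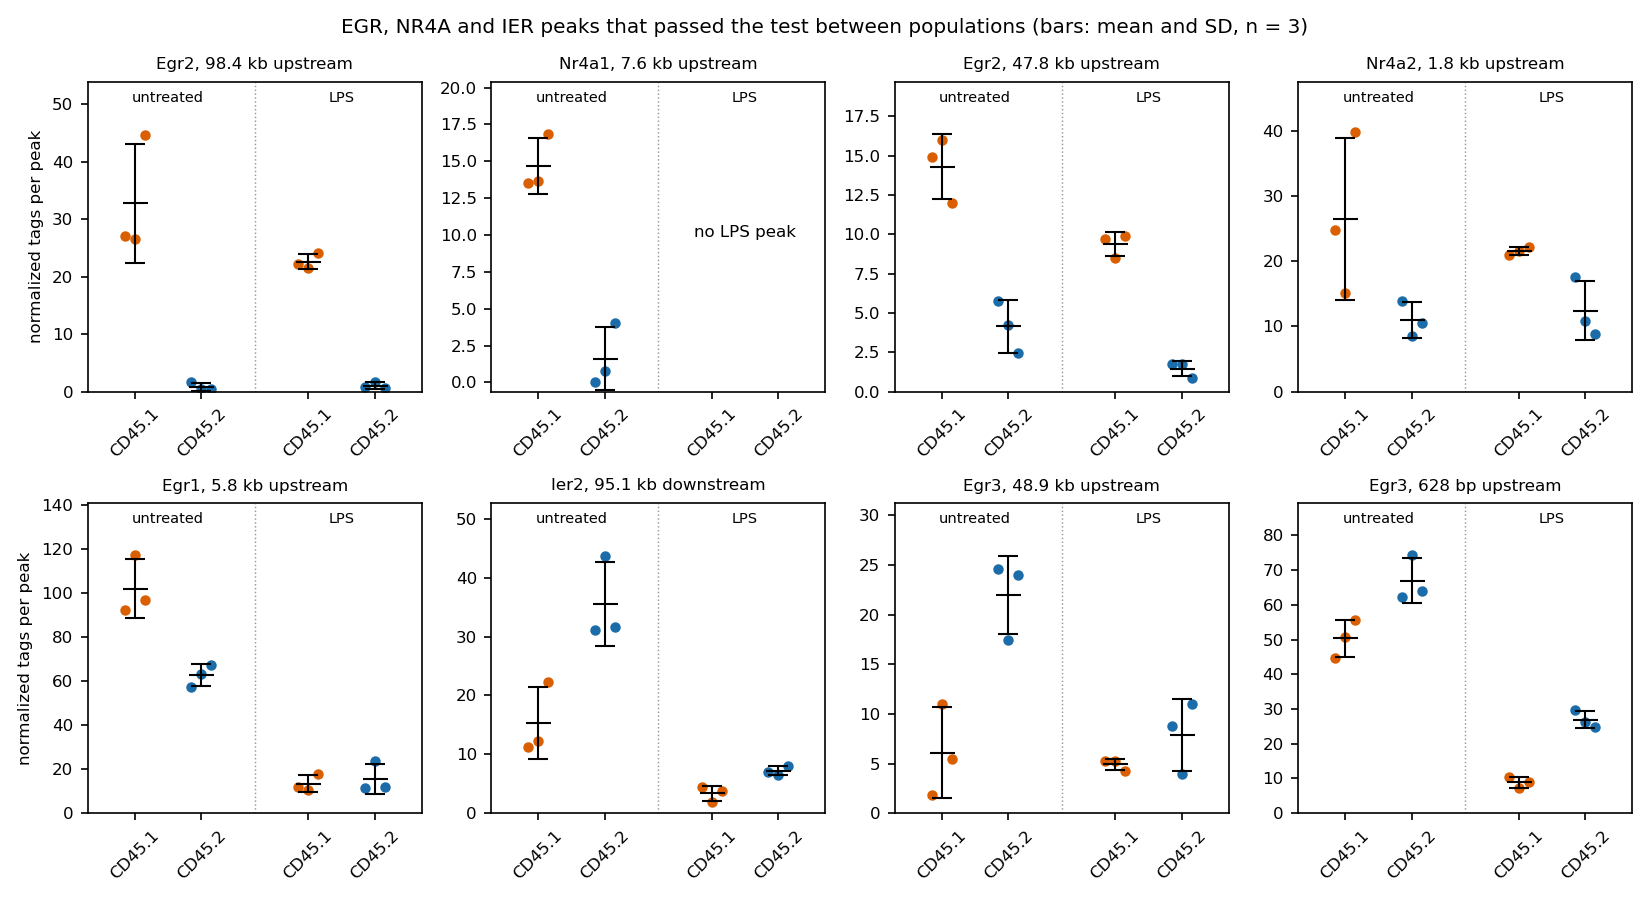
Normalized tags per peak (vertical axis, per library) at the 8 member peaks that passed between populations in untreated or LPS-treated mice, with CD45.1 in orange and CD45.2 in blue. Horizontal bars give the mean and whiskers the SD of 3 libraries, and the untreated and LPS sides of a panel were normalized separately. At the Egr2 peak 98.4 kb upstream CD45.2 stays below 2 normalized tags on both sides while CD45.1 lies between 21.5 and 44.7, and in the Egr3 promoter panel CD45.2 lies above CD45.1 on both sides.

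The peaks nearest the start sites were compared gene by gene. In untreated mice none of the 8 passed between populations. Egr1 (346 bp upstream) held 183, 167 and 207 normalized tags in CD45.1 and 187, 153 and 179 in CD45.2 (log2 difference 0.11 ± 0.16 (SE), adjusted p = 0.798). Egr2 (173 bp upstream) held 92.8, 93.6 and 76.8 in CD45.1 and 119.6, 116 and 99 in CD45.2 (log2 difference -0.34 ± 0.20 (SE), adjusted p = 0.314). Egr3 (628 bp upstream) held 44.8, 50.7 and 55.5 in CD45.1 and 62.3, 74.3 and 64.1 in CD45.2 (log2 difference -0.42 ± 0.25 (SE), adjusted p = 0.324). The Egr1 values overlapped, while at Egr2 and Egr3 each CD45.2 library was above each CD45.1 library.

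For the receptor genes, Nr4a1 (69 bp upstream) held 85.8, 62.1 and 98.6 in CD45.1 and 86.8, 61.1 and 75.1 in CD45.2 (log2 difference 0.16 ± 0.24 (SE), adjusted p = 0.80). Nr4a3 (211 bp upstream) held 96.1, 89.9 and 136 in CD45.1 and 77.8, 70.0 and 73.8 in CD45.2 (log2 difference 0.53 ± 0.22 (SE), adjusted p = 0.0867). At Nr4a2 the nearest peak, 54 bp into the gene from the inner start, held 24.3, 26 and 41.4 in CD45.1 and 11.5, 16.3 and 15.8 in CD45.2 (log2 difference 1.01 ± 0.41 (SE), adjusted p = 0.0858). The higher Nr4a2 promoter peak, 163 bp before the outer start, held 107, 115 and 105 in CD45.1 and 112, 76.2 and 97.4 in CD45.2 (log2 difference 0.22 ± 0.20 (SE), adjusted p = 0.60). Nr4a1 and the outer Nr4a2 start overlapped between populations, and the other 2 were higher in each CD45.1 library without passing. The edgeR fit called both of these 2 (adjusted p = 0.0285 for Nr4a3 and 0.013 for Nr4a2).

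Ier2 (24 bp upstream) held 102, 102 and 120.3 in CD45.1 and 95.9, 100.2 and 86 in CD45.2 (log2 difference 0.20 ± 0.20 (SE), adjusted p = 0.647). Ier3 (91 bp upstream) held 77.9, 54.3 and 71.3 in CD45.1 and 54.1, 47.6 and 31.6 in CD45.2 (log2 difference 0.64 ± 0.27 (SE), adjusted p = 0.104). Both were higher in each CD45.1 library, though barely so at the closest pair, and the edgeR fit called Ier3 (adjusted p = 0.0234). After LPS the Ier3 order turned, with 43.3, 39.1 and 40.6 in CD45.1 and 44.7, 60.2 and 47.5 in CD45.2, again without passing (log2 difference -0.32 ± 0.29 (SE), adjusted p = 0.705).

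After LPS the Egr1 promoter held 79.6, 110.2 and 80.7 normalized tags in CD45.1 and 109, 139 and 98.9 in CD45.2 (log2 difference -0.37 ± 0.23 (SE), adjusted p = 0.469). The Egr2 promoter held 78.8, 78.9 and 57.1 in CD45.1 and 106, 104 and 87.3 in CD45.2 (log2 difference -0.46 ± 0.23 (SE), adjusted p = 0.312), with CD45.2 higher in every library as in untreated mice. The Nr4a1 promoter held 31.9, 41.7 and 41.5 in CD45.1 and 19.3, 31.8 and 35.3 in CD45.2, and that of Nr4a2 (154 bp upstream) 63.5, 77.6 and 72.2 in CD45.1 and 112, 78.9 and 59.4 in CD45.2. The Nr4a3 promoter held 49.7, 58.1 and 56.6 in CD45.1 and 46.4, 53.2 and 48.4 in CD45.2, and that of Ier2 44.1, 42.4 and 22.6 in CD45.1 and 36.8, 40.6 and 34.4 in CD45.2. These 4 had log2 differences of 0.36, -0.19, 0.14 and -0.04, with overlapping values and adjusted p of 0.725 or more. Egr3, described above, was the 1 promoter of 8 that passed.

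The highest LPS peaks that were not promoters gave no call. At Egr3 the peak 11291 bp upstream held 83.7, 73.1 and 60.4 in CD45.1 and 84.9, 82 and 55.5 in CD45.2 (log2 difference 0.00 ± 0.26 (SE), adjusted p = 1). At Nr4a1 the peak 20377 bp upstream held 97, 97.8 and 50.0 in CD45.1 and 72.7, 119.9 and 98.3 in CD45.2 (log2 difference -0.28 ± 0.27 (SE), adjusted p = 0.729). At Nr4a3 the peak 1950 bp upstream held 126, 142 and 125 in CD45.1 and 123, 138 and 109 in CD45.2 (log2 difference 0.09 ± 0.20 (SE), adjusted p = 0.913). The values of these 3 overlapped between populations. At Ier2 the peak 1222 bp upstream held 58.6, 56.8 and 62.3 in CD45.1 and 63.9, 72.8 and 84.6 in CD45.2 (log2 difference -0.33 ± 0.25 (SE), adjusted p = 0.605), and at Ier3 the peak 8303 bp upstream held 40.8, 39.8 and 30.7 in CD45.1 and 71.8, 54.1 and 48.7 in CD45.2 (log2 difference -0.64 ± 0.30 (SE), adjusted p = 0.243). Both were higher in each CD45.2 library without passing.

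**Figure D3:**
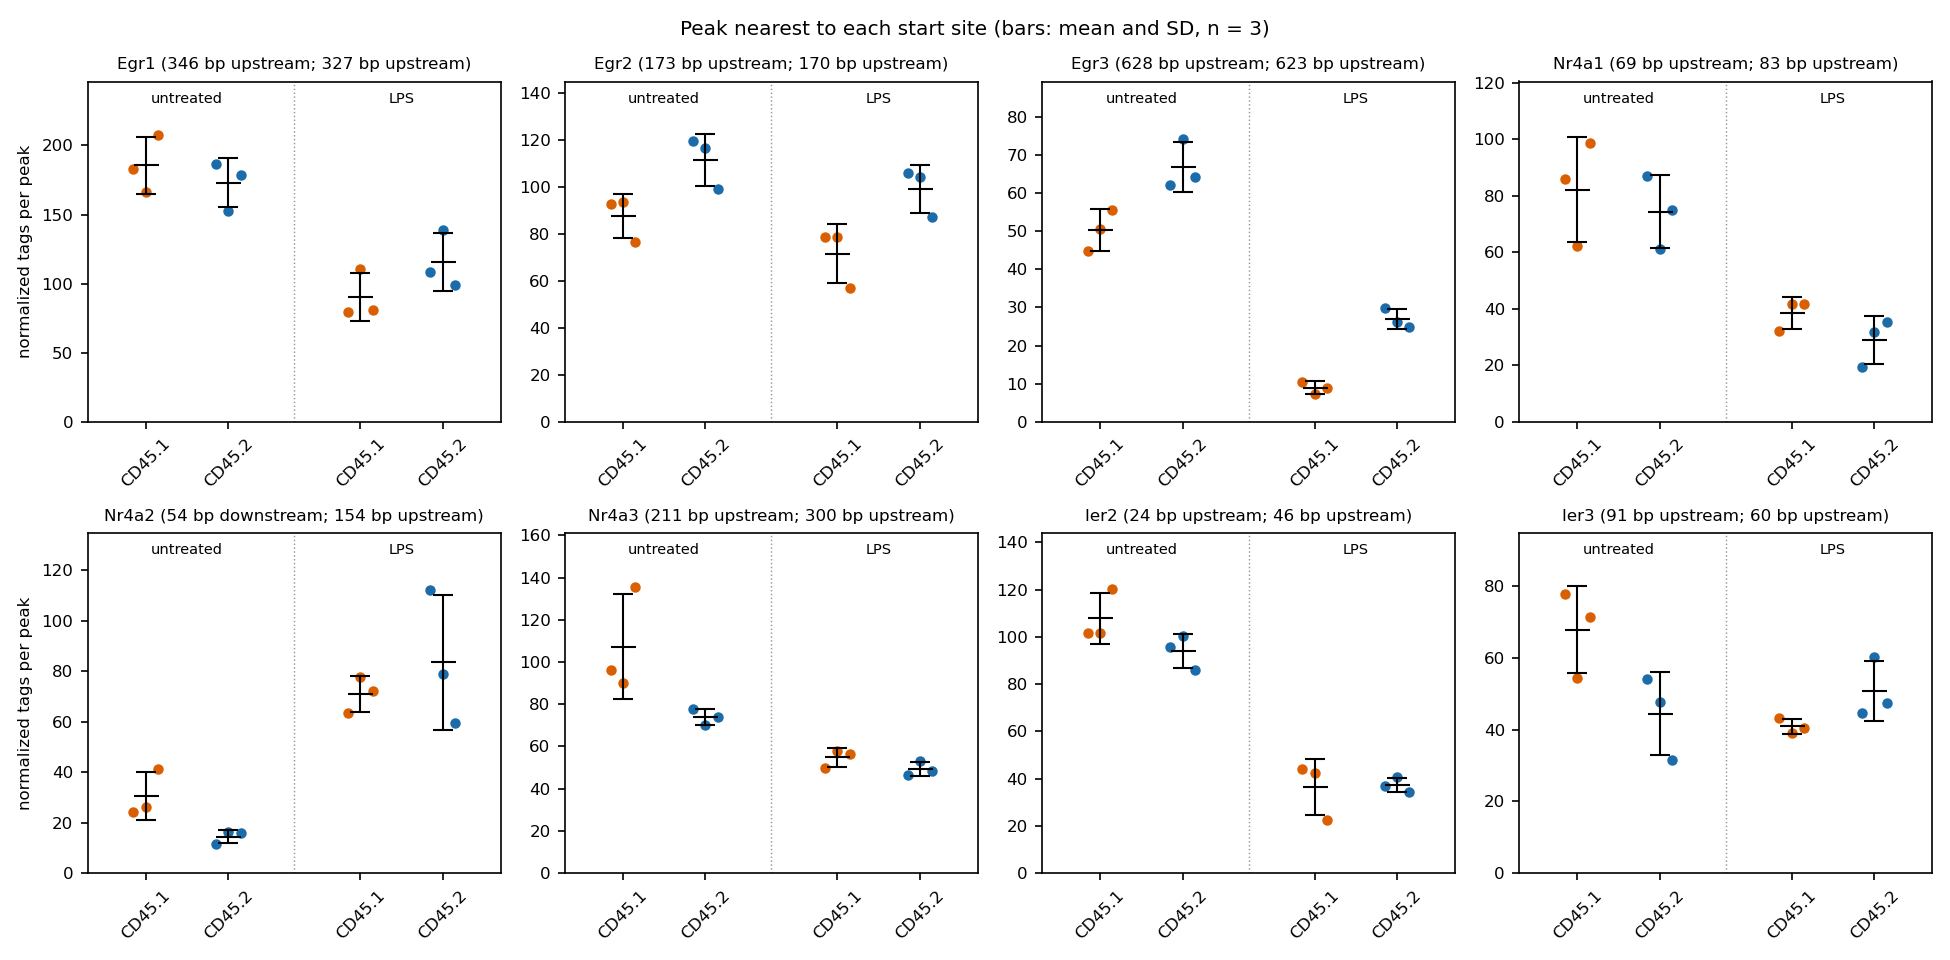
Normalized tags (vertical axis, per library) at the peak nearest the start site of each of the 8 genes, with the peak's distance in the untreated and then the LPS table in each title. CD45.1 is orange, CD45.2 blue, bars are the mean and whiskers the SD of 3 libraries, and the 2 sides of a panel were normalized separately. The populations overlap or lie close in most panels, and the widest relative gap is that of Egr3 after LPS. The Nr4a2 sides show different peaks.

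To follow LPS within each population, peaks of both tables were paired where they overlapped by at least 50% in each direction, which gave 41 pairs for the 8 genes among 39235 tested. Treatment and table cannot be told apart: peaks were called, merged and counted separately, LPS peaks were wider (median over all peaks 167 bp against 132 bp, over these pairs 168 bp against 145 bp), and a wider peak collects more tags. Widths are therefore given with each value, and each call was also fitted with counts scaled to peak width. In CD45.1, 3 pairs rose (7.32%; 12.4% of all) and 4 fell (9.76%; 7.29% of all). In CD45.2, 7 rose (17.1%; 11.6% of all) and 4 fell (9.76%; 4.98% of all). Over the pairs the median log2 change was 0.11 for CD45.1 libraries and 0.13 for CD45.2 libraries, against -0.0045 and -0.0072 over all peaks. In this section normalized tags are on 1 scale over all 12 libraries.

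The Ier3 promoter had the lowest adjusted p of the pairs in host microglia. CD45.2 held 35.9, 32.4 and 21.4 normalized tags in untreated mice and 64.3, 87.2 and 70.0 after LPS, with no overlap (log2 change 1.35 ± 0.25 (SE), adjusted p = 4.21e-06). CD45.1 held 52, 36.4 and 46.9 in untreated mice and 62.7, 58.3 and 60.2 after LPS, which did not pass (log2 change 0.42 ± 0.25 (SE), adjusted p = 0.232). The peak was 160 and 225 bp wide in the 2 tables, and scaled to width the CD45.2 change was still called (1.12, adjusted p = 2.60e-04). It also stood without any single library (adjusted p = 0.00151 or lower). The difference between the 2 changes was -0.93 ± 0.36 on the log2 scale (unadjusted p = 0.00906) and did not pass over all peaks (adjusted p = 0.515).

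The Egr2 promoter and an upstream Nr4a3 peak rose in both populations. At Egr2 (173 bp upstream; 198 and 305 bp) CD45.1 went from 61.9, 62.8 and 50.5 to 114, 118 and 84.6 and CD45.2 from 79.4, 79.3 and 67 to 153, 151 and 129. Both passed (CD45.1 log2 change 0.84 ± 0.20 (SE), adjusted p = 4.67e-04; CD45.2 log2 change 0.93 ± 0.19 (SE), adjusted p = 2.61e-05), and scaled to width they were 0.48, adjusted p = 0.0719 in CD45.1 and 0.57, adjusted p = 0.0238 in CD45.2. All LPS libraries were above all untreated ones in each population. At Nr4a3 (2386 bp upstream; 134 and 198 bp) CD45.1 went from 77.5, 82.1 and 82.4 to 112, 124 and 119.6 and CD45.2 from 78.3, 74.3 and 75.3 to 156, 146 and 119. Both passed (CD45.1 log2 change 0.56 ± 0.18 (SE), adjusted p = 0.0148, and CD45.2 log2 change 0.87 ± 0.18 (SE), adjusted p = 3.24e-05), against 0.26, adjusted p = 0.329 and 0.56, adjusted p = 0.0153 scaled to width. In CD45.1 the call was lost without the CD45.1 library of mouse 2 (0.0639), the CD45.1 library of mouse 3 (0.0637) or the CD45.1 library of mouse 4 (0.0702).

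The Egr3 peak in the Pebp4 intron 52546 bp upstream rose from 10.6, 11.6 and 14.7 to 27.5, 35 and 34.3 in CD45.1 and from 3.26, 11.1 and 19 to 21.4, 29.7 and 38.9 in CD45.2. Its widths were 133 and 216 bp, and neither change passed once scaled to width (0.96, adjusted p = 0.072 and 0.95, adjusted p = 0.0963). Unscaled, CD45.1 had a log2 change 1.40 ± 0.40 (SE), adjusted p = 0.00466 and CD45.2 a log2 change 1.39 ± 0.40 (SE), adjusted p = 0.00564, the latter p 0.104 without the CD45.2 LPS library of mouse 3.

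Other pairs were called in CD45.2 and not in CD45.1. The outer Nr4a2 promoter (163 bp upstream; 117 and 173 bp) rose from 74.5, 51.9 and 65.9 to 161, 114 and 87.5 (log2 change 0.88 ± 0.22 (SE), adjusted p = 8.23e-04; scaled to width 0.58, adjusted p = 0.0533). In CD45.1 it went from 71.6, 77.2 and 69.2 to 92, 116 and 107 (log2 change 0.52 ± 0.22 (SE), adjusted p = 0.0719). The Nr4a2 intronic peak at 1807 bp (107 and 191 bp) was called in CD45.2 (log2 change 1.24 ± 0.46 (SE), adjusted p = 0.0447), from 9.25, 5.8 and 7.14 to 25.2, 15.8 and 13.1. That call was lost when any 1 of 9 of the 12 libraries was left out (highest adjusted p = 0.196) and when scaled to width (0.67, adjusted p = 0.374). In CD45.1 this intronic peak went the same way, from 16.5, 10.1 and 26.2 to 30.5, 32.1 and 32.9, without passing (log2 change 0.89 ± 0.38 (SE), adjusted p = 0.0828). The Egr1 promoter (270 and 376 bp) rose in CD45.2 from 124, 104 and 121 to 156, 202 and 146 (log2 change 0.54 ± 0.18 (SE), adjusted p = 0.0222; scaled to width 0.32, adjusted p = 0.247). It was lost without the CD45.2 library of mouse 2 (0.27), the CD45.2 library of mouse 5 (0.153) or the CD45.2 library of mouse 6 (0.0612). In CD45.1 the Egr1 promoter went from 122, 112 and 137 to 115, 164 and 120 (log2 change 0.09 ± 0.18 (SE), adjusted p = 0.777). Whether these changes differ between populations was tested only by the difference of changes below.

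Peaks that fell with LPS lay mostly upstream of the promoters. The Egr1 peak 5751 bp upstream (187 and 131 bp) fell in CD45.1 from 61.6, 78.7 and 63.8 to 17.6, 15.5 and 26.6 (log2 change -1.76 ± 0.32 (SE), adjusted p = 1.80e-06; scaled to width -0.98, adjusted p = 0.0172). In CD45.2 it went from 38.1, 43.2 and 45.6 to 16.4, 34.1 and 17.5 (log2 change -0.90 ± 0.31 (SE), adjusted p = 0.0276; scaled to width -0.13, adjusted p = 0.848). The CD45.1 fall was called under both counts and without any single library. The CD45.2 fall was lost when scaled, and without the CD45.2 library of mouse 1 (0.107), the CD45.2 library of mouse 3 (0.24), the CD45.2 library of mouse 5 (0.102) or the CD45.2 library of mouse 6 (0.121).

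The Egr3 promoter (628 bp upstream; 154 and 188 bp) fell in CD45.1 from 29.9, 34 and 36.5 to 15.2, 10.7 and 13.3 although its peak was wider after LPS (log2 change -1.27 ± 0.35 (SE), adjusted p = 0.00387; scaled to width -1.30, adjusted p = 0.00325). In CD45.2 it held 41.3, 50.6 and 43.4 in untreated mice and 42.9, 37.9 and 36.8 after LPS (log2 change -0.24 ± 0.27 (SE), adjusted p = 0.616). The difference of the changes was -1.04 ± 0.45 (unadjusted p = 0.0206, adjusted p = 0.691).

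At the Nr4a1 peak 12752 bp upstream (171 and 125 bp) CD45.1 fell from 35.8, 30.0 and 36.2 to 15.8, 10.7 and 7.69 and CD45.2 from 23.9, 19.2 and 23.9 to 1.26, 4.42 and 8.31. CD45.1 had a log2 change -1.46 ± 0.41 (SE), adjusted p = 0.0045 (0.0606 without the CD45.1 library of mouse 3), and CD45.2 a log2 change -1.94 ± 0.50 (SE), adjusted p = 0.00173. At the Ier2 peak 2217 bp upstream (112 and 93 bp) CD45.1 fell from 40.8, 42.6 and 49.4 to 15.8, 9.72 and 28.7 and CD45.2 from 28.3, 35 and 38.5 to 13.9, 13.9 and 19.3. CD45.1 had a log2 change -1.26 ± 0.34 (SE), adjusted p = 0.0030 and CD45.2 a log2 change -1.05 ± 0.35 (SE), adjusted p = 0.0213, the latter call lost without the CD45.2 library of mouse 1 (0.0544), the CD45.2 library of mouse 2 (0.127), the CD45.2 library of mouse 5 (0.0837) or the CD45.2 library of mouse 6 (0.118). The Egr3 peak 55810 bp upstream (134 and 130 bp) fell in CD45.2 from 24.5, 23.7 and 22.5 to 6.31, 8.84 and 11.8 (log2 change -1.29 ± 0.44 (SE), adjusted p = 0.0275), a call lost without any 1 of the 6 CD45.2 libraries (adjusted p = 0.052 to 0.114). In CD45.1 it went the same way, from 24.6, 16.2 and 22.6 to 12.3, 7.77 and 11.9, without passing (log2 change -1.02 ± 0.44 (SE), adjusted p = 0.0865). Scaled to width, none of these 3 peaks passed in either population. With that scaling 1 pair rose and 2 fell in CD45.1, and 5 rose and 0 fell in CD45.2. The share of all pairs is not given for that scaling, so these counts are not read as particular to these genes. The pairs that passed only when scaled were Nr4a3 at 2205 bp, in both populations (0.87, adjusted p = 0.0267 and 1.25, adjusted p = 3.78e-04), and Ier3 at 8330 bp in CD45.2 (0.60, adjusted p = 0.0481).

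The test of whether LPS changed the populations differently called 0 of the 41 pairs with DESeq2 and 0 with edgeR. For 11 of the 41 DESeq2 gave no adjusted p, among them the Egr2 peaks at 98383 and 47816 bp, so these could not be called by it. Without adjustment 2 pairs had p under 0.05, the Ier3 and Egr3 promoters given above, which is near the 5.33% of all peaks that did. Of all peaks, 0.0178% passed with a larger change in CD45.1 and 0.227% with a smaller one. In 28 of 41 pairs the change was lower in CD45.1, with a median log2 difference of -0.21 against -0.02 over all peaks. The share of all pairs doing so is not given, and pairs of the same gene are not independent. No weaker response of CD45.1 is read from this count. At the Egr2 peak near 98 kb, CD45.2 stayed at or under the floor of 3 tags in both states, so no change is given for it, and CD45.1 went from 18, 17.8 and 29.4 to 32.2, 32.1 and 35.7 (log2 change 0.63 ± 0.39 (SE), adjusted p = 0.252).

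**Figure D4:**
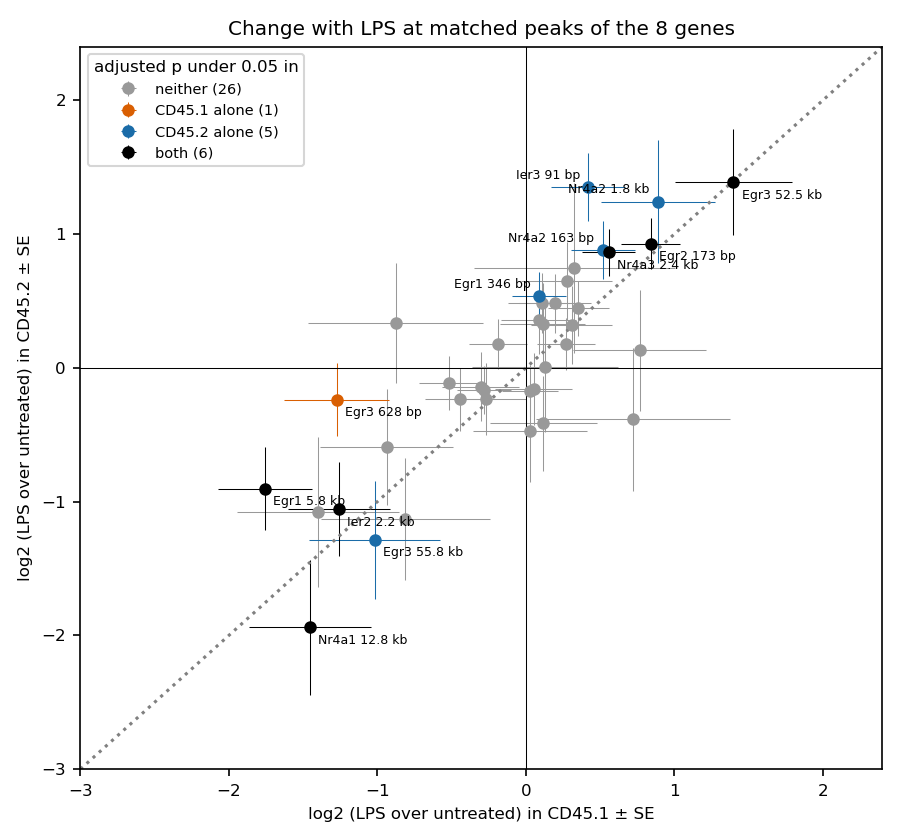
Log2 change with LPS in CD45.1 (horizontal axis) and CD45.2 (vertical axis), each with its SE, for 38 of the 41 matched peaks of the 8 genes; 3 pairs whose CD45.2 means stayed at or under 3 normalized tags are left out. Black points passed in both populations (6), orange in CD45.1 alone (1) and blue in CD45.2 alone (5); the dotted line marks equal changes. The points of the Ier3 and Egr3 promoters lie above that line.

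Summed over all peaks of a gene, the 8 genes gave no call between populations. With DESeq2, 0 of 8 passed in either table, 1 (Nr4a2) in untreated mice and 0 after LPS had an unadjusted p under 0.05, and edgeR also called 0. Of all genes, 7.35% were called higher in CD45.1 and 7.46% higher in CD45.2 in untreated mice, and 4.08% and 2.98% after LPS. Nr4a2 sums were 253, 257 and 267 normalized tags in untreated CD45.1 and 225, 192 and 219 in CD45.2 (log2 difference 0.29 ± 0.14 (SE), adjusted p = 0.161). The 8 log2 differences ran from -0.17 (Egr3) to 0.29 in untreated mice and from -0.37 (Ier3) to 0.09 (Nr4a1) after LPS. Sums grow with the number and width of peaks, so they are not compared between genes or tables.

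The partners of these genes were read in the same way from lists. Of the EGR corepressors, Nab1 and Nab2 did not pass in either table, and Egr4 had no peak. Of the NR4A partners, Rxrg, encoding the RXR subtype with the most restricted expression, was far lower in CD45.1: 22, 44 and 30.6 normalized tags over its peaks against 303, 315 and 298 in CD45.2 (log2 difference -3.23 ± 0.21 (SE), adjusted p = 6.47e-52). After LPS it held 18.4, 35.8 and 29.8 against 175, 201 and 169 (log2 difference -2.75 ± 0.26 (SE), adjusted p = 2.33e-23). Rxra and Rxrb, the broadly expressed subtypes, did not pass in either table. Of the 10 SRF and CREB branch regulators, Elk3, an ETS partner of SRF, was lower in CD45.1 in untreated mice (log2 difference -0.50 ± 0.15 (SE), adjusted p = 0.00605), and 0 of 10 passed after LPS.

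Of 30 other immediate early genes, 29 were tested in untreated mice and 28 after LPS. Arc and Ier5 were higher in CD45.1 in untreated mice, 0 were lower, and 0 passed in either direction after LPS. Over all genes, 7.35% were called higher and 7.46% lower in CD45.1 in untreated mice, and 4.08% and 2.98% after LPS. The 2 of 29 are therefore not read as particular to immediate early genes. Arc, a regulator of synapses that is also found outside neurons, held 92.3, 75.5 and 82.9 normalized tags in CD45.1 and 61.6, 43.4 and 51.1 in CD45.2 (log2 difference 0.71 ± 0.24 (SE), adjusted p = 0.0251). Ier5, a stress-response relative of Ier2, passed with a smaller difference (log2 difference 0.23 ± 0.08 (SE), adjusted p = 0.0447). The median log2 difference of the list was 0.12 in untreated mice and 0.08 after LPS, against 0.00 and -0.01 over all genes. Among the marker lists of other cells, besides the neuron genes above, lower genes in untreated CD45.1 were endothelial Cdh5 and Kdr (2 of 4 tested), oligodendrocyte Mog (1 of 3), astrocyte Aldh1l1 (1 of 4) and neutrophil and monocyte S100a9 (1 of 3), and higher genes were astrocyte Gja1 and the 1 tested lymphocyte gene, Cd3d. After LPS, Cdh5 and Mog were lower and Gja1 higher in CD45.1, and 0 of the other genes of these lists passed.

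For 3 motifs the share of member peaks was at least 2-fold that of all peaks. The CRE core was in 25 of 64 untreated windows (39.1%; 15.4% of all peaks) and 22 of 58 LPS windows (37.9%; 16% of all). Within 1000 bp of a start site it was in 7 of 11 untreated members (24.8% of all such peaks), and elsewhere in 18 of 53 (11.6%). The CArG box was in 5 untreated members (7.81%; 1.05% of all) and 5 LPS members (8.62%; 0.970%), all at the EGR genes. In the untreated table these included the Egr1 promoter, with 3 matches, an Egr2 peak 418 bp upstream, and Egr3 peaks at 2542 and 11318 bp. NF-kappaB letters were in 8 untreated (12.5%; 6.00%) and 10 LPS members (17.2%; 6.96%), among them the Ier3 promoter.

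The other motifs differed less from their general shares or were in few members. AP-1 was in 5 and 7 members (7.81% and 12.1%; 8.11% and 13.4% of all), and the ETS/PU.1 site in 7 and 4 (10.9% and 6.90%; 9.45% and 8.72%). The EGR site itself was in 2 untreated members and 1 LPS member (3.13% and 1.72%; 1.81% and 1.88% of all), at Nr4a1 and, downstream, Egr1. The full CRE was in 1 member in each table, the Ier2 promoter (1.18% and 1.26% of all). The NBRE letters and the pattern labelled CEBP (TTGCNNCAA) were in 0 members, where 0.932% and 1.45% of all untreated peaks held them. Only that string was searched under the CEBP label. Sites with other letters or spacing were not counted, so no absence of C/EBP sites is read from this. The 7 called untreated peaks included CRE cores at Egr2 (98383 bp), Egr3 and Nr4a2. These are matches of letters, with no test, and say nothing of binding.

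**Figure D5:**
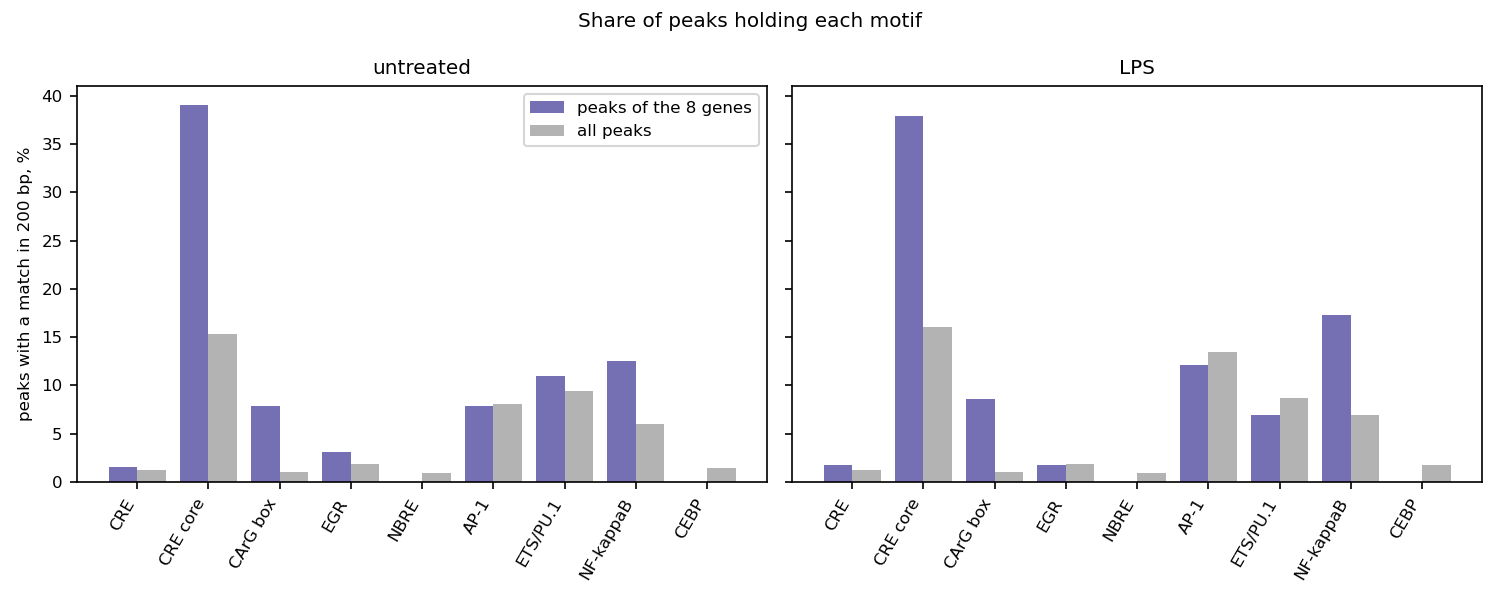
Share of peaks (vertical axis, %) with at least 1 match to each motif in the 200 bp around the peak centre, for peaks of the 8 genes (purple) and all peaks of the table (grey), in the untreated (left, 64 of 60288) and LPS (right, 58 of 54953) tables. The CRE core reaches 39.1% and 37.9% of the member peaks, and the CArG box 7.81% and 8.62% against about 1% of all.

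As a description of likeness, each matched promoter peak was correlated with 10570 promoter peaks over the 12 libraries on the log2(normalized tags + 1) scale. All of these share libraries, depth and the step between tables, so high values are common. The closest to Egr1 was Safb (r = 0.874), to Egr2 Zfp619 (0.969), to Egr3 Tbc1d24 (0.954) and to Nr4a1 Nono (0.951). The closest to the outer Nr4a2 start was Cyp2u1 (0.981), to Ier2 Cse1l (0.956) and to Ier3 Slc3a2 (0.953). The Egr1 promoter had the lowest best match of the 7, and the Nr4a3 promoter had no pair at 50% overlap.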

How the data were processed

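The tables of expected counts are, per the file headers, HOMER's raw tag counts in merged peaks, annotated on mm9 and made by the authors separately for untreated and LPS-treated mice. Tags come in steps of 0.5, so counts were rounded. The authors' processing notes name bcl2fastq 2.17.1.14, Bowtie2, Picard 1.108 and HOMER. The deposited peak lists of each library hold a score per peak and were used for overlap alone. The 8 genes, gene lists, motifs and tests were chosen with earlier results of these data known.

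Peaks with more than 10 tags in at least 1 library were tested with DESeq2 1.42.0 (R 4.3.3), CD45.1 over CD45.2, without a block, and p-values were adjusted over all peaks (Benjamini-Hochberg). Matched peaks of both tables entered one fit with the 4 groups and their interaction. Alternatives were edgeR 4.0.16 with TMM, other filters and scalings, the mouse as a block, a GC correction, other overlaps, and leaving out each library. Libraries of 1 mouse are paired, since the design text says both populations came from the same animal. Correlations of same-mouse deviations from group means were 0.0807 to 0.0873 in untreated mice and -0.0665 to 0.149 after LPS. Between different mice they were -0.102 to 0.00105 in untreated mice and -0.159 to 0.117 after LPS. In untreated mice every same-mouse value was thus above every other, and the main test does not model this pairing. By rule, per-library values are given for each gene's promoter peak, its highest peak and each peak called between populations; other peaks are given by range or where a result turns on them. Each group is 3 mice. The fits were tested on simulated data. Gene positions are from GENCODE vM1. Sequence on chromosome 18 (Egr1), the sequence of 1 other promoter and 1 marker gene's result are not reported here.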

Additional observations from a re-analysis of the deposited data

How the results depend on the processing

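In the comparison of CD45.1 with CD45.2 in untreated mice, the 5 member peaks higher in CD45.1 became 12 with edgeR and TMM, 1 with a mean count of at least 20, 2 with total tags as library size, 2 with the mouse as a replicate block and 3 with the replicate block and a GC correction. The 2 higher in CD45.2 became 1 with a mean count of at least 20, 0 with total tags, and 0 with the replicate block with or without the GC correction. The 2 past the 4-fold rule became 0 with a mean count of at least 20, and 1 with total tags, with the replicate block and with the block and GC correction. Over all peaks, calls toward CD45.1 moved from 8.54% to 12.2% with edgeR, 6.42% with a mean count of at least 20, 5.67% with total tags and 5.96% with the block, and calls toward CD45.2 from 6.32% to 10.7%, 4.7%, 3.67% and 4.08%. Leaving out each library gave 1 to 6 peaks, 0 to 2 peaks and 1 to 2 peaks in these 3 counts. After LPS, the 1 peak higher in CD45.1 became 2 with edgeR and 0 with a mean count of at least 20, and stayed at 1 without each library. The 1 higher in CD45.2 became 2 with edgeR and 0 with a mean count of at least 20, total tags, the replicate block, the block with GC correction, and without each library (0 to 0). The 1 past the 4-fold rule became 0 with a mean count of at least 20, and was 0 to 1 without each library. Over all LPS peaks, calls toward CD45.1 moved from 4.08% to 7.35% with edgeR, 2.8% with a mean count of at least 20, 4.93% with total tags and 2.26% with the block, and toward CD45.2 from 2.38% to 4.67%, 1.53%, 1.86% and 1.41%. In both comparisons some shares of all peaks are not given. These are for the block with GC correction, the 4-fold rule under the alternatives, and each library left out. Member counts under those settings are therefore not read as particular to these genes. A mean count of at least 20 removed the low Egr2 and Nr4a1 peaks from the test. It also removed the untreated Egr3 peak at 48883 bp, the untreated Nr4a2 peak at 1807 bp and the Egr3 promoter peak after LPS. These peaks were left untested by that filter, not tested and lost. The cause of the other shifts was not tested. The block changed no other call than those given here and in the results, and kept the far Egr2 peak in both tables and the Nr4a1 peak.

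For LPS against untreated, CD45.1 had 3 pairs higher, which became 5 with edgeR, 5 at an overlap of 25%, 0 at 75%, 1 scaled to peak width (an alternative chosen after seeing the data), 0 with total tags and 2 to 4 without each library. Its 4 lower became 7 with edgeR, 1 at an overlap of 75%, 2 scaled to width and 3 to 6 without each library. CD45.2 had 7 higher, which became 11 at 25%, 0 at 75%, 1 with total tags and 5 to 8 without each library, and 4 lower, which became 0 at 75%, 0 scaled to width, 1 with total tags and 1 to 4 without each library. Over all pairs, edgeR moved the CD45.1 calls from 4860 to 6103 higher and from 2860 to 4758 lower, and total tags moved the CD45.2 calls from 4542 to 2042 higher and from 1952 to 871 lower. A stricter overlap leaves fewer pairs, with 43152 at 25%, 39390 at 50% and 20332 at 75% over all genes before the count filter. Shares of all pairs called are not given at 25%, at 75%, scaled to width, without each library, or for CD45.1 with total tags. Those counts cannot be read alone. At 75%, 19 member pairs were left. No paired analysis was possible for these changes because untreated and LPS-treated mice were different animals. Total tags moved the median of all peaks by 0.14 (log2) in the LPS comparison of populations and by -0.15 in the LPS change of CD45.2. The difference of changes and the sums per gene gave 0 members under every alternative (0 to 0 without each library). The log2 difference of the Egr1 peak 5728 bp upstream after LPS reversed from -0.20 to 0.26 without the CD45.2 library of mouse 2 (range without each library -0.44 to 0.26). The LPS peaks in all 6 lists fell from 20 to 5 when at least 50% of the peak had to be covered. In 100 bp windows, untreated EGR matches were in 1 member, AP-1 in 2 and NF-kappaB in 5, and LPS ETS/PU.1 matches in 2 and NF-kappaB in 5. With 3 mice a group, and fewer tags after LPS, differences in peaks of low count could be missed. Of the alternatives for single peaks, 395 kept the direction and the side of the threshold, 102 lost the threshold, 1 gained it and 1 reversed.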

Other observations

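In untreated mice, edgeR called 7 member peaks higher in CD45.1 that DESeq2 did not call, 3 of them promoters (Ier3, Nr4a3 and the inner Nr4a2 start). Over all peaks it called 12.2% higher in CD45.1, against 8.54% with DESeq2. The other 4 lay upstream. The Nr4a1 peak 12752 bp upstream held 53.6, 44.7 and 55 normalized tags in CD45.1 and 36.1, 28.3 and 35.3 in CD45.2 (edgeR's quasi-likelihood test, adjusted p = 0.0291; DESeq2 0.151). The Nr4a2 peak 2707 bp upstream, in an intron of the gene, held 60.6, 58.9 and 55.5 against 46.7, 34.1 and 37.3 (0.0248 and 0.136). Both were higher in each CD45.1 library.

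The other 2 had few tags and passed the count filter through CD45.1 alone. The Ier3 peak 22539 bp upstream held 2.80, 0.913 and 20.7 normalized tags in CD45.1 and 0, 0.387 and 0 in CD45.2 (edgeR adjusted p = 0.00917; DESeq2 0.102), so most of its signal came from mouse 6. The Nr4a3 peak 206659 bp upstream held 6.53, 3.19 and 17.4 against 4.10, 0.774 and 2.03 (0.0397 and 0.0756), also highest in mouse 6 and overlapping between populations.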
